A study of Mus musculus with 53 samples.

Results

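Interferon-stimulated genes are the genes that a cell turns on when interferon reaches its surface. Type I interferon binds the receptor of *Ifnar1* and *Ifnar2*, interferon gamma binds that of *Ifngr1* and *Ifngr2*, and JAK kinases then activate transcription factors of the STAT family. These bind DNA elements called ISRE, in a complex with IRF9, and GAS, next to the genes that are switched on. The products sense viral RNA and DNA, block translation of viral RNA, coat or destroy intracellular microbes, and cut proteins into peptides for presentation to T cells. The set described here held 37 genes of this kind, chosen by name, of which 33 had a probe set that the annotation ties to 1 gene, among 17097 genes measured that way. *Isg15*, *Oas1a*, *Ifi44* and *Bst2* were not analysed here. A gene was followed by its brightest probe set, the one with the highest mean over all arrays, and 20 of the 33 genes had 1 probe set, 10 had 2 and 3 had 3.

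The study models synovial sarcoma, a soft tissue cancer driven by the fusion gene *SS18-SSX1*, and the data are 53 GeneChip arrays of mouse RNA in 9 groups. Embryonic mesenchymal cells (eMCs) from BALB/c limbs carried human *SS18-SSX1* in a pMYs retrovirus (4 arrays) or the empty pMYs vector (4 arrays), both at 48 h. Tumors had grown under the skin of nude mice, which lack T cells, from eMCs given *SS18-SSX1* together with *miR-214* (SS214, 13 tumors) or *SS18-SSX1* alone (SS, 12 tumors). A mix of 10 normal tissues was measured on 4 arrays. It is mouse according to the labels and the paper's figure captions, and the methods alone call it human. The tumor cell lines SS40 and SS64, each from 1 tumor, received *miR-214* (4 arrays each) or a negative control, NC (4 arrays each). Nothing says that the arrays of a culture group came from separate cultures, so p-values in eMCs, the mix and the lines measure the spread between arrays, which may be technical. Values are log2 intensities, on which 1 unit is a 2-fold difference, with a floor of 3.55 under which signals were not told apart. A change passed when its Benjamini-Hochberg adjusted p in limma, over all probe sets tested, was under 0.05.

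The measured members were read by role. Transcription factors were *Irf1*, *Irf7*, *Irf9* and *Stat2*. Sensors were *Ifih1* and *Dhx58*, which detect double-stranded RNA, *Zbp1*, which binds Z-form nucleic acid, and *Eif2ak2*, the kinase PKR that halts translation. The OAS family comprised *Oas2*, *Oas3*, *Oasl1* and *Oasl2*, and the IFIT family, which binds foreign RNA, *Ifit1*, *Ifit2* and *Ifit3*. Direct effectors were *Rsad2* (viperin) with its neighbour on chromosome 12, *Cmpk2*, and the dynamin-like *Mx1* and *Mx2*. *Usp18* removes ISG15 from proteins and dampens the receptor, and *Herc6* attaches ISG15 in the mouse. *Gbp2*, *Gbp3*, *Igtp*, *Irgm1* and *Iigp1* encode GTPases that act on pathogen vacuoles, and *Psmb8* and *Psmb9* the inducible subunits of the immunoproteasome. *Xaf1*, *Rtp4*, *Trim30a*, *Parp14* and *Ifi35* made up the rest. *Mx1* lay at the floor on all arrays outside the tumors, and on 12 of 13 SS214 and 9 of 12 SS tumors, so it was tested in the comparison of the tumor groups alone.

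The promoters of several members carry the elements named above. RefSeq windows on GRCm38.p6, of 300 bases around the gene start, were matched for 28 of the 37 members by symbol. The ISRE core was searched as GAAA, any 2 bases and GAAA again, and the GAS core as TTC, any 3 bases and GAA, on both strands, with overlapping matches counted. The ISRE core was found in 15 of the 28 members (53.6%) against 3.99% of 27025 genes, and the GAS core in 8 of 28 (28.6%) against 9.55% of genes. A match is a string of letters and was not tested for binding. The 9 stretches of 60 bases below lie upstream of the gene start and are written 5′ to 3′ on the gene's own strand. They were taken from members that hold a core and whose differences are described further on. *Psmb9*, *Cmpk2*, *Xaf1* and *Herc6*, among others also described further on, had a window with neither core. Capitals mark the ISRE core, which reads TTTC, 2 bases and TTTC when it lies on the other strand, and the GAS core.
Ifit1, chr19:34640769-34640828, + strand: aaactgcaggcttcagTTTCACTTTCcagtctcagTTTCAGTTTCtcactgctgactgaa
Ifit3, chr19:34583364-34583423, + strand: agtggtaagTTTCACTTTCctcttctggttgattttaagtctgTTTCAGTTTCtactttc
Rsad2, chr12:26456528-26456587, - strand: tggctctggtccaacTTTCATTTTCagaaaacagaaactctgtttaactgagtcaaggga
Gbp2, chr3:142620583-142620642, + strand: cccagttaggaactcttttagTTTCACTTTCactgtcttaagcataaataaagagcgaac
Gbp3, chr3:142559984-142560043, + strand: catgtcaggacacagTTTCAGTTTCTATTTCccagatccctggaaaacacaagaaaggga
Irgm1, chr11:48871421-48871480, - strand: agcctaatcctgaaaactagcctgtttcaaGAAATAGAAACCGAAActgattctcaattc
Igtp, chr11:58199496-58199555, + strand: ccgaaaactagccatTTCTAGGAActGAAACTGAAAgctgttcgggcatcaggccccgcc
Irf1, chr11:53769904-53769963, + strand: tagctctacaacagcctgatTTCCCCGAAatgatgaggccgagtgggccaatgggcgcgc
Psmb8, chr17:34198075-34198134, + strand: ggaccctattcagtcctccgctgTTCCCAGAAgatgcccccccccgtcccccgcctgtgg
*Ifit1* and *Ifit3* had 2 separate ISRE cores, *Gbp3* and *Irgm1* had 2 that overlapped, and *Rsad2* and *Gbp2* had 1. *Igtp* had a GAS core just ahead of an ISRE core, while *Irf1* and *Psmb8* had a GAS core and no ISRE core in the window.

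In eMCs at 48 h, nearly the whole set was higher with *SS18-SSX1* than with the empty vector. Of the 32 members tested, 29 rose and 0 fell, where 29.4% of all 15328 genes tested rose and 19.5% fell. The median change of the members was 0.66, against 0.00 over all genes, and 11 members rose by more than 2-fold, where 2.73% of all genes did. In 28 members every *SS18-SSX1* array lay above every empty vector array, a separation that 28% of all genes showed. *Mx2* rose with overlapping groups (0.32 ± 0.09, SE, adjusted p = 0.0108).

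The highest rises were among the GTPases and the antiviral effectors. *Gbp2* read 7.89, 7.89, 7.86 and 7.94 with *SS18-SSX1*, against 6.15, 6.11, 6.36 and 5.99 with the empty vector. The groups were far apart, and *Gbp2* rose 3.35-fold (log2 change 1.74 ± 0.07, SE, limma adjusted p = 1.75e-11). A second *Gbp2* probe set rose by 2.23. *Rsad2* read 8.41, 8.46, 8.50 and 8.48 with *SS18-SSX1*, against 6.99, 6.71, 7.02 and 6.87, and rose 2.96-fold (1.57 ± 0.06, adjusted p = 1.29e-11). Its 2 further probe sets rose by 1.04 and 1.24. *Cmpk2*, transcribed next to it, rose by 1.49 ± 0.09, although a second and dimmer *Cmpk2* probe set stood at -0.03. All 5 GTPases rose, the others being *Gbp3* by 1.34, *Iigp1* by 1.24, *Igtp* by 0.65 and *Irgm1* by 0.39.

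**Figure D1:**
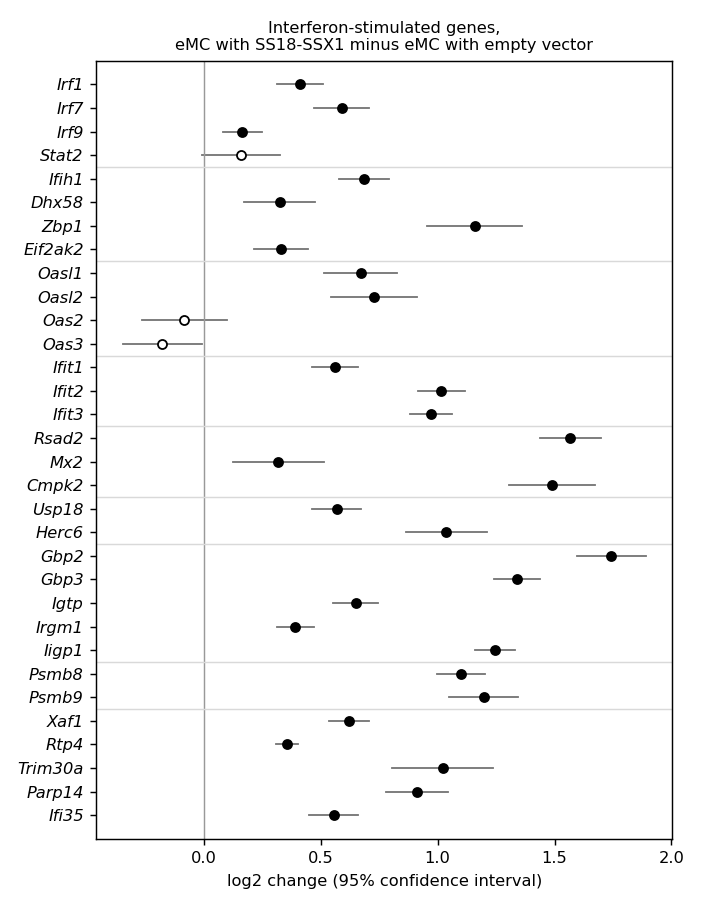
Log2 change (x axis) of the 32 members tested between eMCs with *SS18-SSX1* and eMCs with the empty vector (n = 4 arrays each), grouped by role with grey lines between roles in the order of the text; bars are 95% confidence intervals, filled points passed at an adjusted p under 0.05. All filled points lie right of 0, from *Irf9* at 0.16 to *Gbp2* at 1.74, and *Oas2*, *Oas3* and *Stat2* are open.

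Antigen processing and sensing genes rose as well. *Psmb9* read 6.82, 7.09, 6.98 and 6.87 with *SS18-SSX1*, against 5.77, 5.81, 5.71 and 5.70 with the empty vector, a rise of 1.20 ± 0.07 (adjusted p = 1.51e-09). Its other probe sets were at 0.37 (passed) and 0.09 (not passed), so the probe sets differ in size. *Psmb8* rose by 1.10 ± 0.05, while its dimmer probe set did not pass (0.08). *Zbp1* read 6.46, 6.29, 6.32 and 6.47 with *SS18-SSX1*, against 5.12, 5.37, 5.00 and 5.42, and rose by 1.16 ± 0.09 (adjusted p = 7.82e-08). The RNA sensors rose less, *Ifih1* by 0.68, *Eif2ak2* by 0.33 and *Dhx58* by 0.32.

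The IFIT genes rose together, *Ifit2* by 1.02, *Ifit3* by 0.97 and *Ifit1* by 0.56. *Ifit1* read 8.42, 8.38, 8.35 and 8.25 with *SS18-SSX1*, against 7.83, 7.81, 7.70 and 7.82. In the OAS family, *Oasl2* rose by 0.73 and *Oasl1* by 0.67, while *Oas2* (-0.08 ± 0.08, adjusted p = 0.463) and *Oas3* (-0.18 ± 0.08, adjusted p = 0.0868) did not pass. Of the transcription factors, *Irf7*, the amplifier of the type I response, read 7.27, 7.41, 7.40 and 7.40 with *SS18-SSX1*, against 6.68, 6.83, 6.82 and 6.79 with the empty vector, and rose by 0.59 ± 0.05 (adjusted p = 3.36e-07). *Irf1* rose by 0.41 and *Irf9* by 0.16, whereas *Stat2* stood at 0.16 ± 0.08 (adjusted p = 0.119) and rose by 0.35 on its dimmer probe set. *Herc6* rose by 1.04 and *Usp18*, the brake of the system, by 0.57.

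Outside the set, the upstream parts of the pathway moved less. Interferon genes stayed near the floor, and of 8 tested 1 rose and 2 fell. *Ifnb1*, the first type I interferon made after infection, did not pass (-0.11 ± 0.08, adjusted p = 0.287). Of 16 receptor and JAK-STAT genes, 8 rose and 3 fell, with *Ifngr2* at 0.92, *Ifnar2* at 0.42, *Ifnar1* at 0.38 and *Jak1* at 0.30 among those that rose, while the feedback inhibitor *Socs1* did not pass (0.08). Of 50 further interferon-stimulated genes, 35 rose and 2 fell, and *Cxcl10*, a chemokine of the same response, rose by 1.30.

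Markers of other cells also moved in these cultures. The summed intensity of 20 macrophage markers was 7007 to 7202 with *SS18-SSX1*, against 4864 to 4943 with the empty vector, and 12 of 19 tested rose and 1 fell. All 11 endothelial markers rose (sums of 1239 to 1278 against 299 to 326), as did 8 of 10 granulocyte markers, all 6 mast cell markers tested and 9 of 10 skeletal muscle markers (sums of 2095 to 2181 against 585 to 626). Of 13 NK and T cell markers 1 rose, the granzyme *Gzmb*, and 0 of 7 dendritic cell markers rose while 2 fell. The part of other cells in the rise was not tested, and in bulk RNA more cells of a type and more RNA per cell cannot be told apart. In 1 fit of all 53 arrays, whose spread includes that of the tumors, 8 of the 29 passed (*Rsad2*, *Cmpk2*, *Herc6*, *Oasl1*, *Gbp2*, *Psmb9*, *Ifi35* and *Ifit3*). Over all genes, 7.64% rose in that fit.

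In SS tumors the members moved in both directions, as genes in general did. Against the tissue mix, 14 of 32 members rose and 7 fell, where 36.1% and 27.2% of 15679 genes did, and 9 rose and 4 fell by more than 2-fold (11.3% and 13.8% of all genes). The median change was 0.47, against 0.07 over all genes. Against eMCs with the empty vector, 9 of 32 rose and 11 fell, where 32.6% and 35.7% of 15625 genes did, with 6 and 5 beyond 2-fold (14.5% and 8.7% of all genes) and a median of -0.19. After quantile normalization, 6 rose and 14 fell against the empty vector (29.8% and 35.9% of all genes). As shares of the members, 43.8% rose and 21.9% fell against the mix, and 28.1% and 34.4% against the empty vector. The movement in both directions is thus not particular to this set. The same tumors stand in both comparisons, and the empty vector arrays also served for the eMCs above, so the comparisons are not independent.

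Immunoproteasome genes rose against both. *Psmb9* ran from 8.34 over a median of 9.33 to 11.10 in SS tumors, against 7.66, 7.81, 7.90 and 7.78 in the mix and 5.70 to 5.81 with the empty vector. The lowest tumor was above every array of both other groups. *Psmb9* rose by 1.79 ± 0.37 against the mix (adjusted p = 4.91e-04) and by 3.83 ± 0.37, or 14.2-fold, against the empty vector (adjusted p = 7.13e-08). A second *Psmb9* probe set gave 1.74 and 1.58, and the dimmest 0.10 and -0.04. *Psmb8* rose by 1.14 and 2.41, while its dimmer probe set did not pass in either comparison (0.21 and 0.23).

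*Dhx58*, which regulates RNA sensing, ran from 7.14 over 8.26 to 8.71 in SS tumors, against 5.47, 5.85, 5.75 and 5.73 in the mix, with no overlap. It rose by 2.43 ± 0.23 against the mix (adjusted p = 6.05e-08) and by 1.74 ± 0.23 against the empty vector (adjusted p = 3.02e-06). Its 2 dimmer probe sets did not pass against the mix (0.07 and 0.10), and against the empty vector one did not pass (0.07) and the other fell (-0.28, adjusted p = 0.0109), so the rise rests on the brightest probe set. *Igtp* rose by 1.54 and 1.48. Against the mix, *Irf9* (1.54), *Oasl2* (1.51), *Ifi35* (1.18), *Eif2ak2* (1.18) and *Usp18* (1.08) were also beyond 2-fold. *Gbp2* rose by 2.20 ± 0.49 against the empty vector and stood at 1.13 ± 0.49 against the mix, where it did not pass (adjusted p = 0.0606).

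*Rsad2*, *Ifit2* and *Ifit3* fell in both comparisons. *Rsad2* ran from 5.30 over 5.72 to 7.16 in SS tumors, against 9.57, 9.62, 9.39 and 9.54 in the mix, so every tumor was below every mix array. It fell by 3.56 ± 0.30 on the log2 scale against the mix (adjusted p = 1.18e-08) and by 0.92 ± 0.30 against the empty vector (adjusted p = 0.0125), and its other probe sets fell in both comparisons. *Ifit3* ran from 4.59 over 5.08 to 6.36 in SS tumors, against 8.04, 7.91, 8.00 and 7.94 with the empty vector, with no overlap. All 3 IFIT genes fell against the empty vector, with log2 changes of -2.74 ± 0.27 for *Ifit3*, -2.60 ± 0.34 for *Ifit2* and -1.56 ± 0.46 for *Ifit1*. Against the mix *Ifit3* (-1.04) and *Ifit2* (-1.30) fell, while *Ifit1* did not pass (0.55 ± 0.46). *Oas2* (-0.85), *Oas3* (-0.44), *Oasl1* (-0.50) and *Cmpk2* (-1.16) fell against the mix, and *Usp18* (-1.59), *Rtp4* (-1.67), *Xaf1* (-0.96) and *Trim30a* (-0.94) against the empty vector. In the same comparisons the dimmer probe sets of *Cmpk2* (-0.09) and *Trim30a* (-0.46) did not pass. Those of *Rtp4* (-0.40) and *Xaf1* (-0.15) fell.

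The signalling genes upstream were also mixed. Of 16 receptor and JAK-STAT genes 10 rose and 2 fell against the mix, with *Socs3*, a feedback inhibitor, at 2.95, *Ifnar1* at 1.20 and *Ifngr1* at -1.30. Of 50 further interferon-stimulated genes 18 rose and 14 fell against the mix, and 11 rose and 15 fell against the empty vector. *Cxcl10* stood at 1.08 ± 0.50 against the mix, where it did not pass, and fell against the empty vector (-1.52 ± 0.51, adjusted p = 0.0148).

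**Figure D2:**
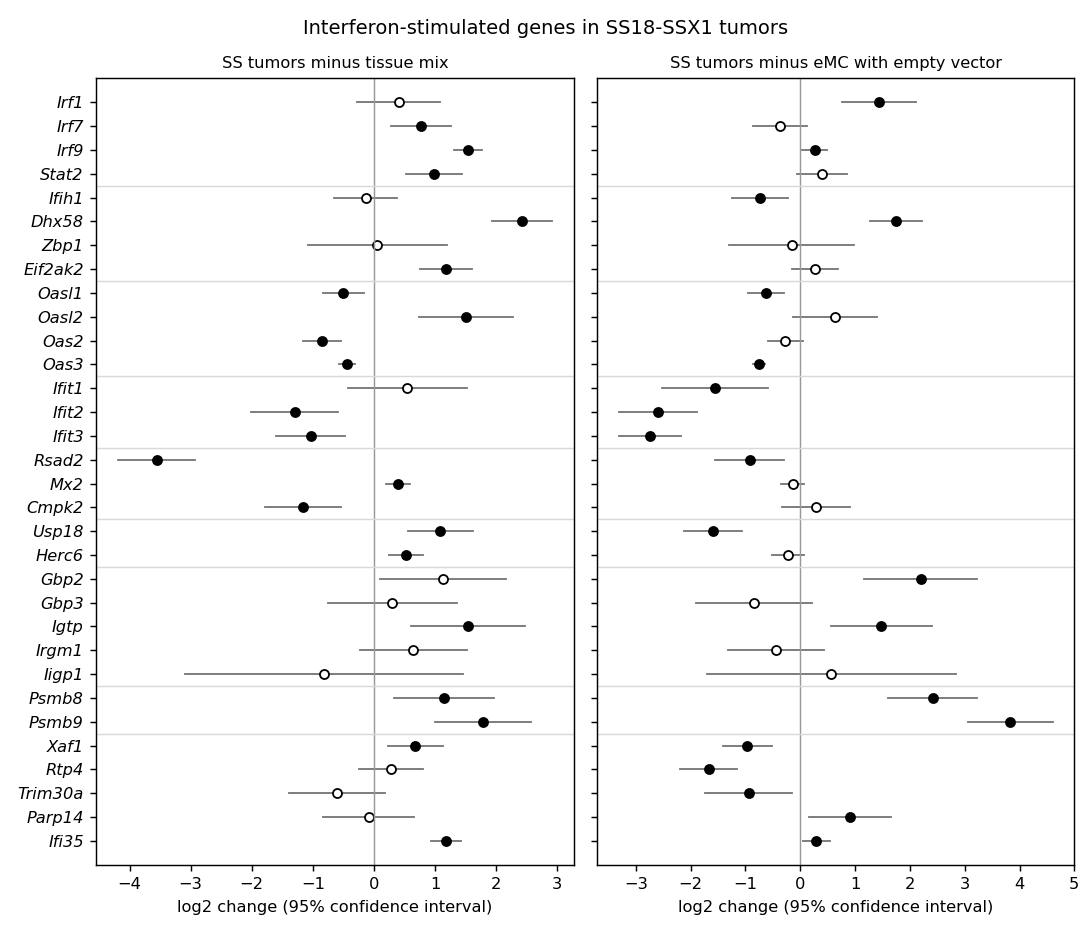
Log2 change (x axes) of the 32 members tested in 12 SS tumors against the tissue mix (left, n = 4) and against eMCs with the empty vector (right, n = 4), in the same order of roles; bars are 95% confidence intervals and filled points passed. *Psmb8*, *Psmb9*, *Igtp* and *Dhx58* lie right of 0 in both panels, and *Rsad2*, *Ifit2* and *Ifit3* left of 0 in both.

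RNA quality and cell makeup differed between these groups. The 3′ over 5′ *Gapdh* signal, as a log2 ratio that rises with RNA degradation, was 0.33 to 1.43 in SS tumors, against 0.04 to 0.07 in the mix and -0.02 to 0.06 with the empty vector. With that ratio as a covariate, 8 members rose and 7 fell against the mix (30.3% and 24.0% of all genes). Against the empty vector, 5 rose and 10 fell (26.0% and 24.9% of all genes). *Psmb9* (0.99, adjusted p = 0.126), *Psmb8* and *Igtp* no longer passed against the mix. Against the empty vector *Gbp2*, *Irf1*, *Igtp*, *Parp14* and *Ifi35* lost the call among those that rose, while *Psmb9* (2.98) and *Psmb8* (1.70) kept it. Against the mix, 10 of 10 granulocyte, 10 of 11 endothelial and 7 of 20 macrophage markers fell and 5 of 7 mast cell markers rose. Against the empty vector, 10 of 10 skeletal muscle markers (median change 5.66), 7 of 7 mast cell and 9 of 11 endothelial markers rose, 3 of 10 granulocyte markers fell, and of 19 macrophage markers 6 rose and 5 fell. Their part was not tested. Against the empty vector, *Irf9* and *Parp14* lost the call without any 1 of its 4 arrays, *Ifi35* without replicate 2, 3 or 4 and *Trim30a* without replicate 1, 2 or 3, so that 6 or 7 members then rose.

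Compared with each other, SS214 and SS tumors differed little in these genes. Some SS tumors also had raised *miR-214* in the paper, so SS is not a reference without it. Of 33 members 3 rose and 2 fell in SS214 tumors, where 22.6% and 17.3% of 15644 genes did, and 0 changed by more than 2-fold in either direction (0.946% rose and 1.06% fell that far among all genes). *Oasl2* fell by 0.77 ± 0.29 (adjusted p = 0.0326) and *Dhx58* by 0.68 ± 0.19 (adjusted p = 0.00723). *Dhx58* ran from 6.12 over 7.58 to 8.09 in SS214 tumors, against 7.14 over 8.26 to 8.71 in SS tumors, so the groups overlapped. The 2 dimmer *Dhx58* probe sets did not pass (0.20 and 0.03), so this fall rests on the brightest probe set. *Ifi35* rose by 0.41, *Irf9* by 0.29 and *Oas3* by 0.16. The median over the members was -0.08. For *Iigp1* the difference was 0.09 with a 95% interval of -1.76 to 1.95. The *Gapdh* ratio was -0.04 to 0.48 in SS214 tumors, against 0.33 to 1.43 in SS tumors, and with it as a covariate 0 of the 5 calls remained. The loss was general, since 2.51% of all genes rose and 3.71% fell with the covariate. The ratio and the tumor group largely go together, so their parts cannot be told apart. SS214 tumors 13 to 16 stood apart in 4 lung markers, with a mean log2 level of 6.44 to 9.17, against 3.77 to 5.25 in the other 9 SS214 tumors and 3.60 to 4.53 in SS tumors. Without these 4 tumors *Oasl2* did not pass (-0.75, adjusted p = 0.0592). All 10 granulocyte markers, 9 of 20 macrophage markers and 2 of 4 lung markers rose in SS214 tumors, and 1 macrophage marker fell. Their part in these values was not tested.

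Within each tumor group, by contrast, the members varied strongly and largely together. Their median SD over tumors was 0.62 in SS214 and 0.57 in SS, against 0.25 and 0.22 over all genes, and 28 of 33 members in SS214 and 29 of 33 in SS exceeded the median of all genes. Of the 528 pairs of members, 455 in SS214 and 474 in SS correlated positively over tumors, with a median r of 0.56 and 0.63. The genes of a tumor share 1 array and its RNA quality, so the correlations are a description. Pairs were not correlated over all genes, and SDs were not set against genes of like level. Whether the shared variation is particular to this set therefore cannot be said.

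*Iigp1*, an interferon gamma-inducible GTPase, varied most. In SS214 tumors it ran from 5.63 over 7.39 to 11.87, and 5 tumors (16, 1, 2, 7 and 13) lay at 10.58 or above while the other 8 lay at 8.36 or below. In SS tumors it ran from 5.62 over 7.75 to 11.65, with tumors 33, 20, 18, 19, 22 and 23 at 8.64 or above and the other 6 at 6.85 or below. The range came to 75.6-fold in SS214 and 65.3-fold in SS tumors. The mix stood at 8.82 to 9.15, eMCs with *SS18-SSX1* at 8.84 to 8.98 and with the empty vector at 7.62 to 7.69, so the tumors fell on both sides of all these cultures and tissues.

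*Gbp2*, *Gbp3*, *Irgm1* and *Igtp* followed the same tumors. *Gbp2* stood at 10.06, 9.85, 9.63, 9.28 and 8.92 in SS214 tumors 13, 1, 2, 7 and 16, and between 7.24 and 8.35 in the other 8. In SS tumors it stood at 10.28, 10.00 and 9.59 in tumors 23, 22 and 19, and between 7.12 and 8.50 in the other 9. *Zbp1* read 7.37 and 6.96 in SS tumors 23 and 22 and no more than 5.83 in the rest. The correlation of each GTPase with the mean of the other members was 0.86 to 0.98 in SS214 and 0.83 to 0.98 in SS, and that of *Psmb8* was 0.96 and 0.97. *Ifit1* reached 7.31 and 7.18 in SS214 tumors 1 and 13 and 8.09 in SS tumor 23, against 4.78 and 5.01 in the lowest tumors of each group.

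Some members did not follow. *Irf9* correlated with the mean of the others at -0.02 in SS214 and 0.05 in SS, *Mx2* at 0.20 and 0.01, and *Dhx58* at 0.30 and 0.40. *Irf9* ran only from 8.00 to 9.27 in SS214 and from 8.18 to 8.79 in SS tumors. *Oas3* ran from 3.59 to 4.12 in SS214 and from 3.55 to 3.86 in SS tumors, at or near the floor, so that little variation could be seen.

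**Figure D3:**
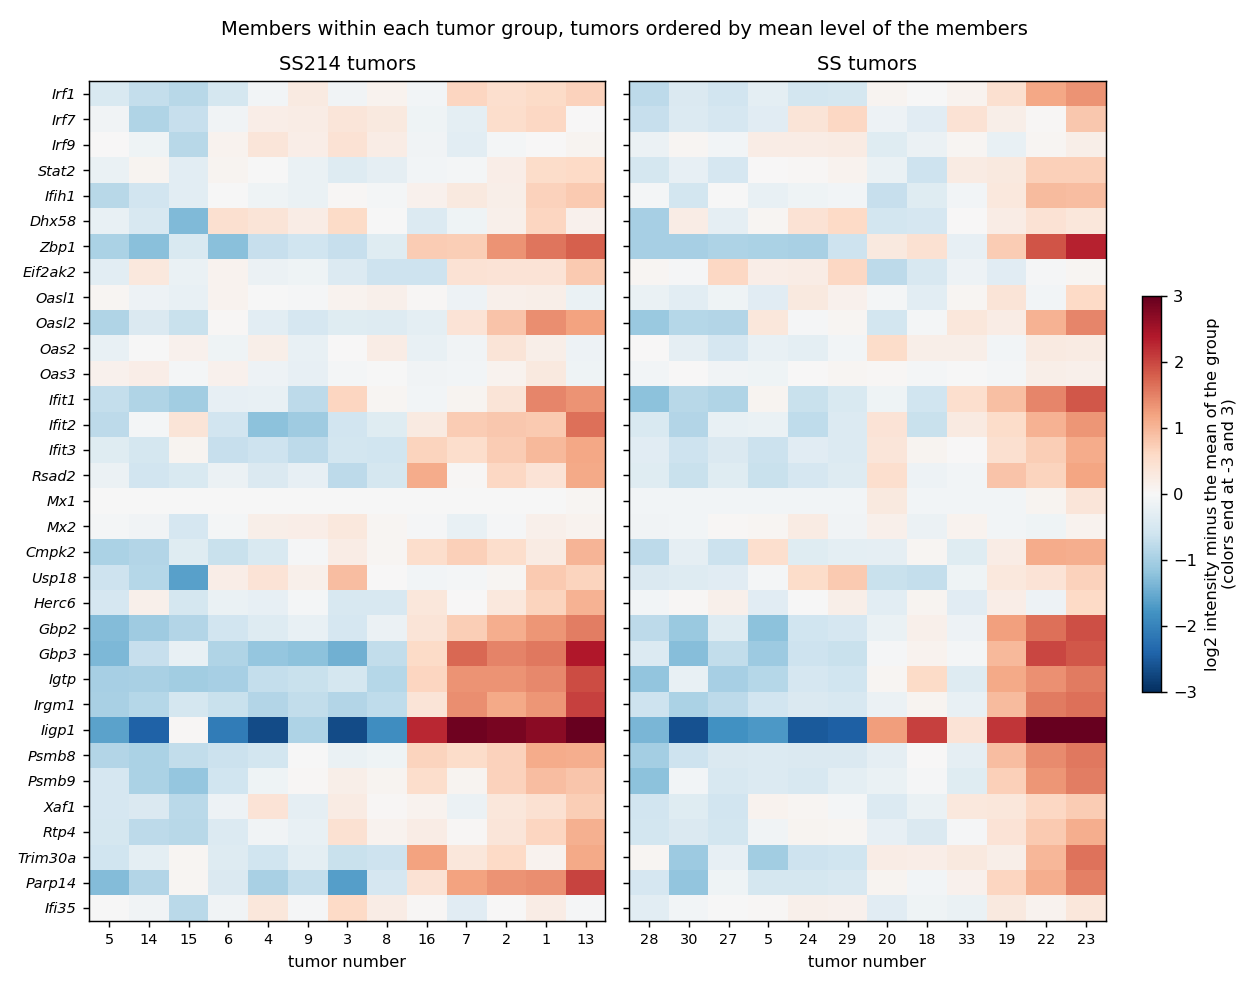
Log2 intensity of the 33 members (rows, by role) minus the mean of the tumor group, in 13 SS214 tumors (left) and 12 SS tumors (right), with columns ordered by the mean of the members; red is above and blue below the group mean. The GTPases, *Zbp1*, the IFIT genes and the immunoproteasome darken together at the right ends, and *Irf9*, *Mx2* and *Oas3* stay pale.

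Some immune cell markers moved with the members over tumors. The mean of 16 NK and T cell markers correlated with the mean of the members at r = 0.93 in both groups (Spearman 0.80 in SS214 and 0.85 in SS), and at 0.96 and 0.76 without the 2 tumors farthest from the median of the markers. The summed intensity of these markers was 338 to 901 in SS214 and 304 to 1188 in SS tumors, against 574 to 596 in the mix. The macrophage mean gave r = 0.72 in SS214 and 0.85 in SS, and the 7 dendritic cell markers 0.82 and 0.97, while endothelial (0.29 and 0.35) and mast cell markers (-0.05 and 0.08) followed less. Granulocyte markers gave 0.22 in SS214 and 0.65 in SS (0.20 in SS without the 2 farthest tumors), and the 4 B cell markers 0.53 and 0.84 (0.40 and 0.52 without them). Mesenchymal markers, which are not of immune cells, gave 0.32 in SS214 and 0.74 in SS, and skeletal muscle markers 0.24 and 0.44. These are 20 relations over 10 marker lists and 2 groups, given without a p because the members were chosen with results known. *Ncr1*, a defining NK cell receptor, did not exceed 4.03 in SS214 and 3.95 in SS tumors, near the floor, while the cytotoxic gene *Nkg7* reached 6.94 and 7.91. Whether these markers have a part in the variation was not tested.

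The cell lines lay at the low end for most members. The mean over the 33 members was 5.31 ± 0.09 in SS40 with *miR-214* and 5.50 ± 0.05 with NC, 5.09 ± 0.03 in SS64 with *miR-214* and 5.26 ± 0.03 with NC (SD, n = 4 each). It was 6.71 ± 0.54 in SS214 tumors (n = 13), 6.75 ± 0.53 in SS tumors (n = 12), 6.46 ± 0.01 in the mix, 7.49 ± 0.01 in eMCs with *SS18-SSX1* and 6.77 ± 0.02 with the empty vector (n = 4 each). By group mean, 16 of the 33 members were highest in eMCs with *SS18-SSX1*, and 25 were lowest in one of the 4 groups of lines (*Mx1*, tied at the floor, left out). The lines are 4 of the 9 groups, and this order was not counted over all genes. Whether the counts are particular to this set therefore cannot be said. *Ifit2* was an exception, at 8.26 and 8.70 in SS40 with *miR-214* and NC and 8.82 and 8.67 in SS64, against 4.77 in SS214 and 4.86 in SS tumors. The mean of 8.26 includes 1 array at 6.98. *Psmb9* stood at 5.14 and 5.46 in SS40 and 4.38 and 4.43 in SS64, against 9.92 in SS214 and 9.57 in SS tumors. Summed macrophage, dendritic cell and mast cell markers were lower in the lines than in every tumor. Macrophage sums were 435 to 708, against 1636 to 14738 in all tumors. NK and T cell sums overlapped, at 323 to 368 in the lines and 304 to 1188 in all tumors. So did B cell sums, at 69 to 84 in the lines and 47 to 1076 in all tumors. Granulocyte sums in the lines (210 to 270) overlapped with those of SS tumors (185 to 4966) but lay below those of SS214 tumors (384 to 18114).

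**Figure D4:**
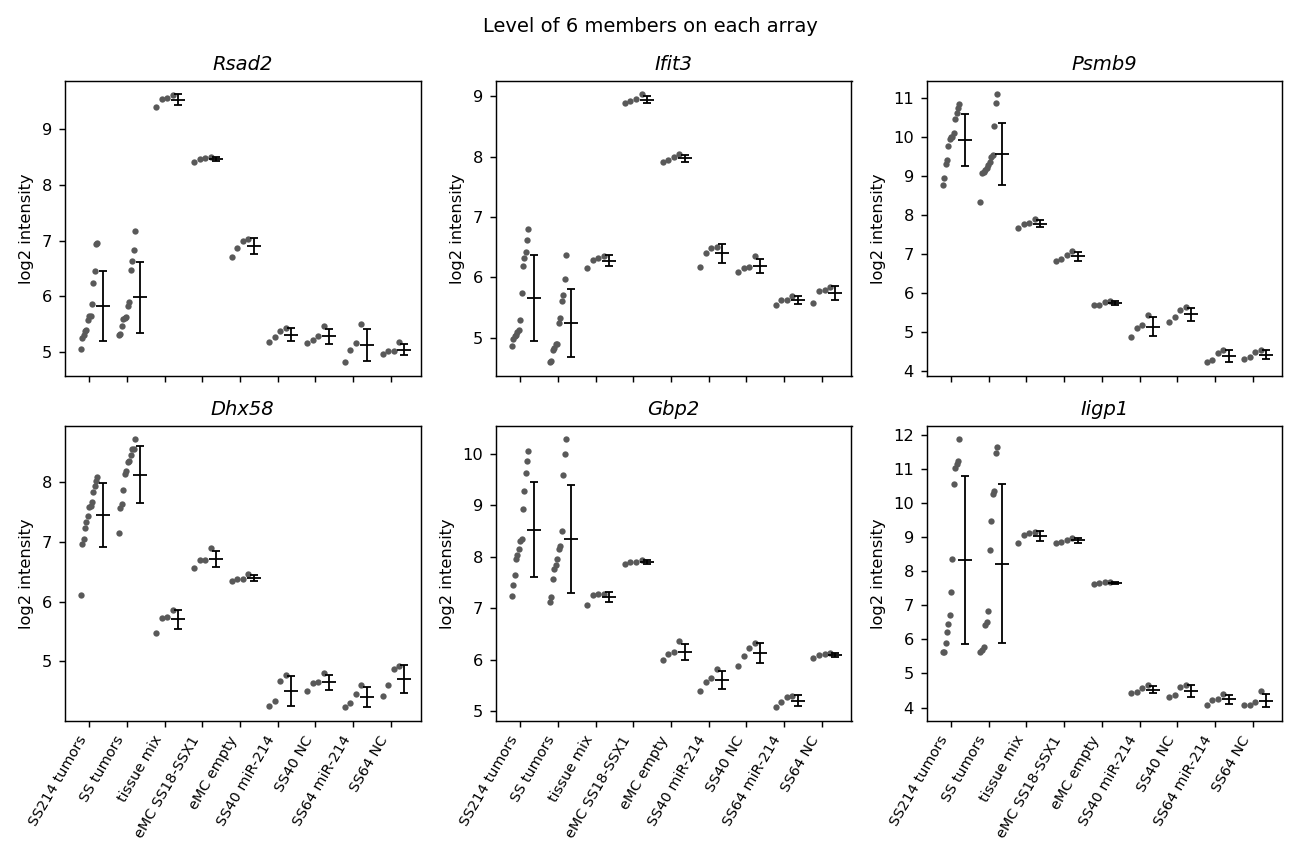
Log2 intensity (y axes) of 6 members on each array of the 9 groups; points are arrays sorted by value and bars to the right of them give the mean ± SD. *Rsad2* is highest in the mix and *Ifit3* in eMCs with *SS18-SSX1*, *Psmb9* and *Dhx58* are highest in tumors, and *Iigp1* spreads from 5.62 to 11.87 over the tumors.

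The lines also differed from each other under NC. SS40 was higher than SS64 in 10 of 32 members and lower in 3, where 26.4% and 22.1% of 15474 genes were, and 8 and 2 were beyond 2-fold (6.02% and 6.34% of all genes). *Psmb8* read 7.38, 7.46, 7.35 and 7.40 in SS40, against 5.29, 5.24, 4.88 and 5.01 in SS64, a difference of 2.29 ± 0.10 (adjusted p = 1.39e-08). *Parp14*, an ADP-ribosyltransferase, went the other way, at 4.39, 4.31, 4.02 and 4.49 in SS40 against 7.04, 7.14, 7.06 and 7.11 in SS64 (-2.78 ± 0.11, adjusted p = 3.77e-09). *Herc6* (1.96), *Ifih1* (1.29), *Irgm1* (1.29), *Ifit1* (1.20), *Rtp4* (1.16), *Psmb9* (1.04) and *Irf1* (1.01) were higher in SS40, and *Gbp3* (-1.03) and *Xaf1* (-0.81) lower. Each line comes from 1 tumor, so the line and its tumor cannot be told apart.

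In SS64, a group of members was lower with *miR-214*. Of 32 tested, 7 fell and 0 rose, where 8.02% and 4.9% of 15403 genes did. An unadjusted p under 0.05 was found in 10 members and in 3879 of the 15403 genes. *Gbp3* read 4.37, 4.54, 4.69 and 4.27 with *miR-214*, against 5.62, 5.43, 5.56 and 5.57 with NC, and fell by 1.08 ± 0.11 on the log2 scale (adjusted p = 6.40e-05). *Gbp2* read 5.30, 5.07, 5.18 and 5.28 with *miR-214*, against 6.12, 6.11, 6.09 and 6.04, and fell by 0.88 ± 0.08 (adjusted p = 4.77e-05), with a second probe set that fell by 1.06. *Xaf1*, a proapoptotic antagonist of XIAP, read 5.94, 5.82, 5.80 and 5.61 with *miR-214*, against 6.78, 6.73, 6.63 and 6.81, and fell by 0.94 ± 0.09 (adjusted p = 4.29e-05), while its dimmer probe set did not pass (0.06). The groups did not overlap in any of the 3 genes. *Irgm1* (-0.50), *Ifih1* (-0.49), *Ifi35* (-0.37) and *Irf1* (-0.35) also fell. In 7 of the 32 members tested, the same 7, all *miR-214* arrays lay below all NC arrays, a separation that 11.8% of all genes showed. The calls were made on the same arrays, so the separation adds no support to them. *Irgm1* did not pass without NC replicate 1.

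*Irf1*, a transcription factor of GBP and antigen processing genes, read 7.19, 7.41, 7.23 and 7.37 with *miR-214* in SS64, against 7.67, 7.71, 7.50 and 7.72 with NC. The IFIT and OAS genes, *Rsad2*, *Usp18* and *Irf7* did not pass, with changes between -0.13 and 0.16. *Irf9* stood at -0.50 ± 0.15 with overlapping groups (adjusted p = 0.0625), and with the replicate number as a block it passed too (adjusted p = 0.0410), which made 8 members that fell. The 7 genes that fell all had a promoter window, of which 4 held the ISRE core (*Gbp2*, *Gbp3*, *Irgm1* and *Ifih1*) and 2 the GAS core (*Irf1* and *Ifi35*), against 8 and 4 of the 17 members with a window that did not pass. Outside the set, *Ifnar2* (-0.31), *Socs3* (-0.50) and *Cxcl10* (-0.67) fell, and 13 of 49 further interferon-stimulated genes fell and 1 rose. *Ifnb1* did not pass (0.09 ± 0.17). In 1 fit of all 53 arrays, *Xaf1* alone of the 7 passed, at an adjusted p of 0.0146. Over all genes, 1.35% fell in that fit.

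In SS40 most changes were of the same sign but few passed. Of 32 members 1 fell and 0 rose, where 0.79% and 0.24% of 15443 genes did. An unadjusted p under 0.05 was found in 11 members and in 1761 of the 15443 genes. The change was below 0 in 24 members and in 8342 of these genes. *Psmb8* read 6.79, 6.80, 6.83 and 6.72 with *miR-214*, against 7.38, 7.46, 7.35 and 7.40 with NC, and fell by 0.61 ± 0.09 (adjusted p = 0.0153). The call was lost when SS40 NC replicate 1, 3 or 4 or *miR-214* replicate 1 or 2 was left out (adjusted p = 0.0522 to 0.0796). The dimmer *Psmb8* probe set did not pass (0.02), and neither did the mean over the probe sets of *Psmb8*. The 7 genes that fell in SS64 were all below 0 here, *Gbp2* at -0.52, *Irf1* at -0.51, *Ifih1* at -0.50, *Ifi35* and *Gbp3* at -0.49, *Irgm1* at -0.45 and *Xaf1* at -0.40, and none passed. In 9 members all *miR-214* arrays were below all NC arrays, a separation that 6.94% of all genes showed. The array of *miR-214* replicate 4 stood apart, with *Irf1* at 7.30 against 8.39, 8.43 and 8.46 on the other 3, and without it *Psmb8*, *Ifi35* and *Irgm1* fell.

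**Figure D5:**
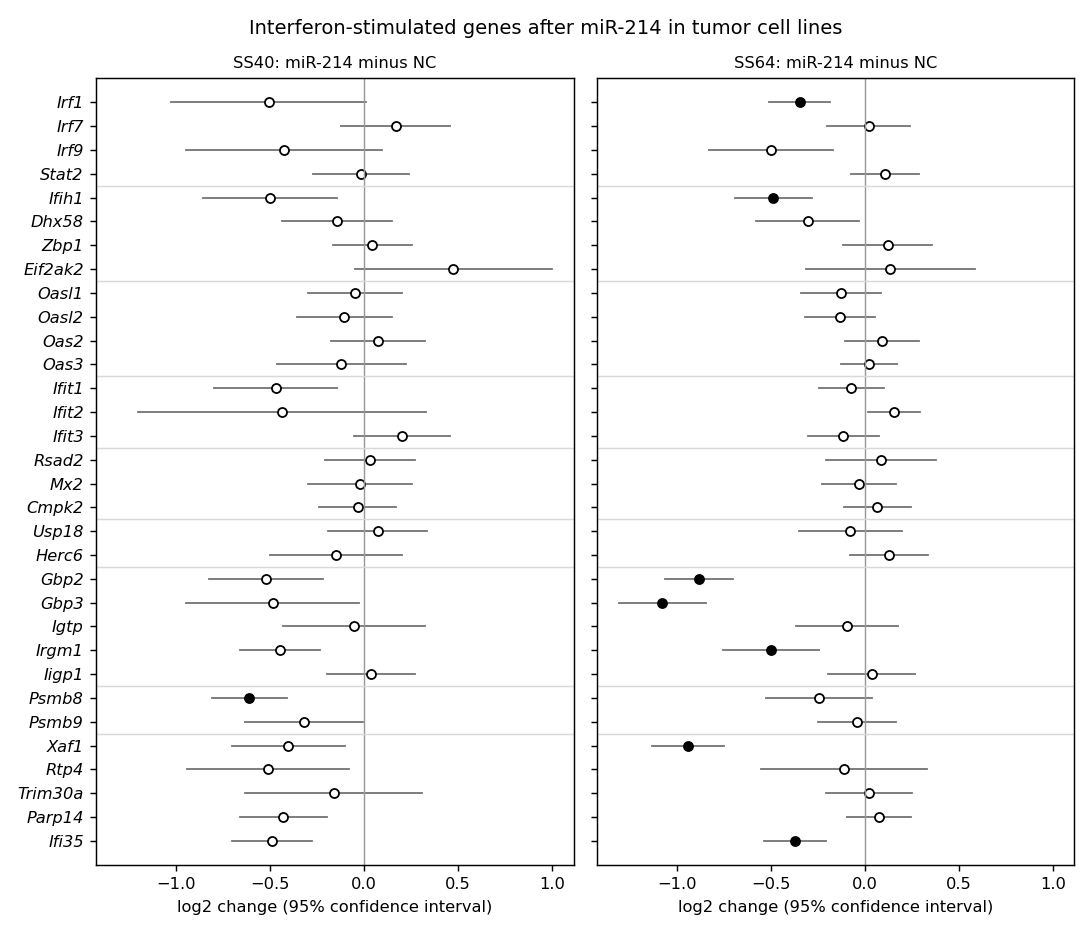
Log2 change (x axes) of the 32 members tested between *miR-214* and NC in SS40 (left) and SS64 (right), n = 4 arrays each, in the same order of roles; bars are 95% confidence intervals and filled points passed. *Gbp2*, *Gbp3*, *Xaf1*, *Irgm1*, *Ifih1*, *Ifi35* and *Irf1* are filled left of 0 in SS64, and only *Psmb8* is filled in SS40.

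The difference between the lines was itself tested. Of 32 members 0 passed in either direction (0.468% and 0.404% of 15828 genes did). An unadjusted p under 0.05 was found in 7 members and in 1607 of the 15828 genes. The largest differences, SS40 minus SS64, were *Gbp3* at 0.59 ± 0.25 (adjusted p = 0.5), *Ifit2* at -0.59 ± 0.38 (adjusted p = 0.762), *Xaf1* at 0.54 ± 0.16 (adjusted p = 0.223) and *Parp14* at -0.50 ± 0.15 (adjusted p = 0.205), so a different response of the lines was not detectable with 4 arrays a group. In SS40 with *miR-214*, *Ifit2* read 8.62, 8.67 and 8.78 but 6.98 on replicate 4, so its difference leans on 1 array. In tumors, where *miR-214* had been present throughout growth, the genes that fell in SS64 stood at 0.18 (*Gbp2*), -0.15 (*Gbp3*), 0.26 (*Xaf1*), -0.05 (*Irgm1*), -0.10 (*Ifih1*) and -0.07 (*Irf1*) in SS214 against SS and did not pass, while *Ifi35* rose by 0.41.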

How the data were processed

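RNA of 53 samples had been hybridized to GeneChip mouse arrays, 1 array a sample. The authors deposited 1 linear intensity per probe set and array (45141 probe sets), already summarized and scaled. The submitters' notes name MAS5, the methods name GeneSpring, and the summary method is not settled by the values, which run from 5.36 to 11034. Gene names came from the annotation of the array platform (28898 with 1 symbol, 551 with several, 15588 with none, 104 controls left out), and several-gene probe sets were not used.

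Intensities under 11.7, the median over arrays of the 20th percentile, were raised to it and put on the log2 scale. Array medians were 22.5 to 26.9, close to the floor, so low genes have compressed changes, and precision rests on the number of arrays. Probe sets above the floor on at least 4 of the arrays compared entered linear models of the groups compared (lmFit and trended eBayes of limma 3.58.1, under R 4.3.3), with Benjamini-Hochberg adjustment over probe sets. Counts are over genes, each by its brightest probe set. The fitting steps were tested on simulated data.

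The members and lists were chosen with earlier results of these data known. Named members are those with the largest changes that passed in a comparison, up to 12, and those that single out a role. Of other lists, up to 4 genes with the largest changes that passed are named, with *Ifnb1*, *Ifnar1*, *Ifnar2* and *Cxcl10*. *Jak1*, *Ifngr1*, *Ifngr2*, *Socs3*, *Socs1*, *Ncr1*, *Nkg7* and *Gzmb* were added after their values were seen. Groups come from the sample labels. The line labelled SS64 has no such name in the paper, whose results name SS60. Same-numbered arrays deviated together in SS64 (r of 0.22 to 0.35), which the labels do not explain, though not every array matched its own number best. In eMCs r was 0.01 to 0.15 and in SS40 -0.28 to 0.46. The main fits used no pairing in any group, and the replicate number entered only as a block in an alternative. The alternatives tried were no filter, the deposited values without a floor, a floor at 17.8, quantile normalization, the mean over probe sets, 1 fit of all arrays, the methods' t-test, a replicate block, leaving out each replicate of the groups of 4 and, chosen after seeing the data, the *Gapdh* 3′ to 5′ ratio as a covariate and leaving out SS214 tumors 13 to 16. Figures used matplotlib 3.10.9.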

Additional observations from a re-analysis of the deposited data

Results flagged for a closer look

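The 17 members described most fully were looked at within the 7 groups of 4 arrays, 119 sets of values in all, for an array whose gap to its nearest neighbour was above Dixon's critical share of the range, which chance alone exceeds in about 1 of 20 sets. There were 4 such arrays. *Irf1* read 7.30 on *miR-214* replicate 4 of SS40, against 8.39 to 8.46 on the other 3 arrays. *Irf7* read 7.27 on replicate 1 of eMCs with *SS18-SSX1*, against 7.40 to 7.41. *Gbp2* read 7.07 on replicate 1 of the tissue mix, against 7.26 to 7.28. *Ifit1* read 7.70 on replicate 3 of eMCs with the empty vector, against 7.81 to 7.83. No member passed the test of a difference between the lines in the response to *miR-214*.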

How the results depend on the processing

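No call of a member turned its direction under any alternative run. In eMCs 29 members rose in the main analysis, 27 to 30 in the other alternatives and 8 in 1 fit of all arrays, and the median change of 0.66 became 0.56 after quantile normalization and 0.58 as the mean over probe sets. Against the mix, 14 members rose, and 8 with the *Gapdh* ratio as a covariate. Against the empty vector, 9 rose and 11 fell, against 5 and 10 with that covariate and 6 and 14 after quantile normalization. In SS214 against SS tumors, 3 rose and 2 fell, against 0 and 1 with that covariate, 1 lower as the mean over probe sets and 5 lower in 1 fit of all arrays. In SS40, 1 member fell, against 0 after quantile normalization, 0 in 1 fit of all arrays and 0 with the replicate block. The count was 2 with the higher floor, 3 without a filter, and 8 and 3 by the methods' t-test without adjustment and after Benjamini-Hochberg. As the mean over probe sets, 2 other members fell in SS40 and *Psmb8* did not pass. In SS64, 7 fell and 1 in 1 fit of all arrays. With the replicate block 8 fell in SS64, the same 7 and *Irf9*, and the 29 calls in eMCs remained. Leaving out each replicate in turn gave 0 to 1 members lower in eMCs, 6 to 7 higher against the empty vector, 0 to 3 lower in SS40 and 6 to 8 lower in SS64. Counts over all genes moved as well. In 1 fit of all arrays 7.64% of genes rose in eMCs and 1.35% fell in SS64. With the *Gapdh* ratio as a covariate, 2.51% of genes rose and 3.71% fell in SS214 against SS tumors. The causes were not tested, beyond that the fit of all arrays shares the spread of the tumors. Signals near the floor limit what can be read of *Mx1*, *Oas2*, *Oas3* and the interferon genes.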
